A study of Homo sapiens with 6 samples.

Results

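Translation factors are the soluble proteins that start, extend and end protein synthesis on the ribosome. Their genes were taken from the gene table by symbol, as every EIF1 to EIF6, EEF1 and EEF2 symbol together with ETF1, GSPT1 and GSPT2, without the EIF2 kinase genes and EEF1E1. The rule found 67 of the 17013 genes with values, and GSPT2 was not analysed here. RNA came from Y79, an established human retinoblastoma line described by the labels as retinoblastoma cells. The MYCN shRNA group (3 libraries, genotype labelled MYCN knockdown) was transduced with a short hairpin RNA against MYCN, a growth-promoting transcription factor of the MYC family. The control shRNA group (3 libraries, genotype labelled MYCN wild-type) received a control hairpin. All 6 libraries are labelled as batch 1, and the series text calls the replicates independent. Both groups are 1 cell line, and the sources used here do not give the number or sequences of the hairpins or the time of harvest, so p-values measure spread between these libraries and not between hairpins.

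Initiation begins when EIF2, loaded with GTP and the initiator tRNA, joins EIF1, EIF1A, EIF3 and EIF5 on the small ribosomal subunit, while the EIF4 proteins bind the cap of the mRNA and unwind its leader. EIF2B recharges EIF2 with GTP after each round, EIF5B joins the large subunit, EEF1 and EEF2 drive elongation, and the release factors ETF1 and GSPT1 free the finished chain. MYC proteins are known in many tumours to raise the output of this machinery, with EIF4E among the classical MYC targets.

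The libraries held 15490263 to 15762707 estimated counts with the MYCN shRNA and 15515994 to 16078416 with the control shRNA. MYCN itself measured 2413.4, 2283.8 and 2195.2 CPM in the MYCN shRNA libraries, against 3045.8, 3127.9 and 2875.8 CPM in control shRNA libraries, a fall of 0.39 ± 0.043 on the log2 scale (SE, adjusted p = 8.03e-11). CPM is a gene's count relative to all counts of its library, here scaled by the trimmed mean of M-values (TMM) throughout. Scaling by library size alone raises the median over all tested genes by 0.181 on the log2 scale, and directions that depend on this choice are named below. All 8 photoreceptor lineage markers were detected and summed to 1640 to 1680 CPM with the MYCN shRNA and 1500 to 1590 CPM with the control shRNA. Within that sum OTX2 fell by 0.67, to 680 ± 9.4 CPM with the MYCN shRNA against 1080 ± 26 CPM in controls (SD, n = 3 each), while the other 7 rose, by 0.36 (CRX) to 2.45 (THRB) on the log2 scale. Of the markers of other cells, 3 leukocyte genes summed to 0.181 to 0.427 CPM with the MYCN shRNA and 0.267 to 0.459 CPM with the control shRNA. The 2 pigment epithelium genes in the table summed to 10.1 to 11.1 CPM with the MYCN shRNA and 2.61 to 2.79 CPM with the control shRNA, and 3 fibroblast genes to 4.22 to 5.3 CPM with the MYCN shRNA and 1.51 to 1.59 CPM with the control shRNA. The 2 endothelial genes in the table summed to 31.3 to 35.0 CPM with the MYCN shRNA and 3.93 to 4.66 CPM with the control shRNA, nearly all VWF. The 3 Müller glia genes summed to 645 to 667 CPM with the MYCN shRNA and 827 to 847 CPM with the control shRNA, nearly all GLUL, with RLBP1 and AQP4 at or near 0. No marker was at 0 in every library. The part of these markers in the results below was not tested.

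Most translation factor genes were lower with the MYCN shRNA. Of the 67 genes, 62 passed the filter on low counts, and 46 of these were lower and 6 higher, while 10 did not pass the test (edgeR quasi-likelihood test, adjusted p under 0.05). Over all 12819 genes tested, 37.9% were lower and 38.0% higher. The median log2 fold change of the 62 was -0.38, against 0.0 for all genes tested. Abundant genes of any kind were more often lower: among the 2335 tested genes with at least 100 CPM, 51.6% were lower and 32.4% higher with a median of -0.11, whereas 34 of the 40 translation factors at that level were lower and 2 higher with a median of -0.42. The groups did not overlap for 52 of the 62, compared with 76.8% of all genes tested. A change of at least 1.5-fold was reached by 17 lower genes and 1 higher gene, against 14.3% and 17.8% of all genes tested. With library sizes as the only scaling, 40 were lower and 15 higher, and their median was -0.2 against 0.186 for all genes.

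The share of all counts that came from the 67 genes does not depend on scaling between libraries. It was 3.06%, 3.01% and 3.01% with the MYCN shRNA, against 3.98%, 4.01% and 3.97% with the control shRNA. EEF1A1, which encodes the protein that carries aminoacyl-tRNA to the ribosome, made up much of this, and without it the shares were 1.77%, 1.75% and 1.76% with the MYCN shRNA, against 2.14%, 2.2% and 2.1% with the control shRNA. Every MYCN shRNA library lay below every control library on both measures. The 5 genes left untested were EIF1AY, EIF2S3B, EIF4E1B, EIF4EBP3 and EIF5AL1. They held from 1.03 counts (EIF5AL1) to 23.35 counts (EIF2S3B) over the MYCN shRNA libraries, and from 3 counts (EIF4E1B) to 54.37 counts (EIF2S3B) over the control libraries. Tests that kept low counts called EIF2S3B lower (-1.41, adjusted p = 3.05e-04 with edgeR and no filter, and 0.0186 with DESeq2), and EIF5AL1 was called lower with edgeR and no filter (-3.06, adjusted p = 0.0149) but not with DESeq2 (0.0604).

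**Figure D1:**
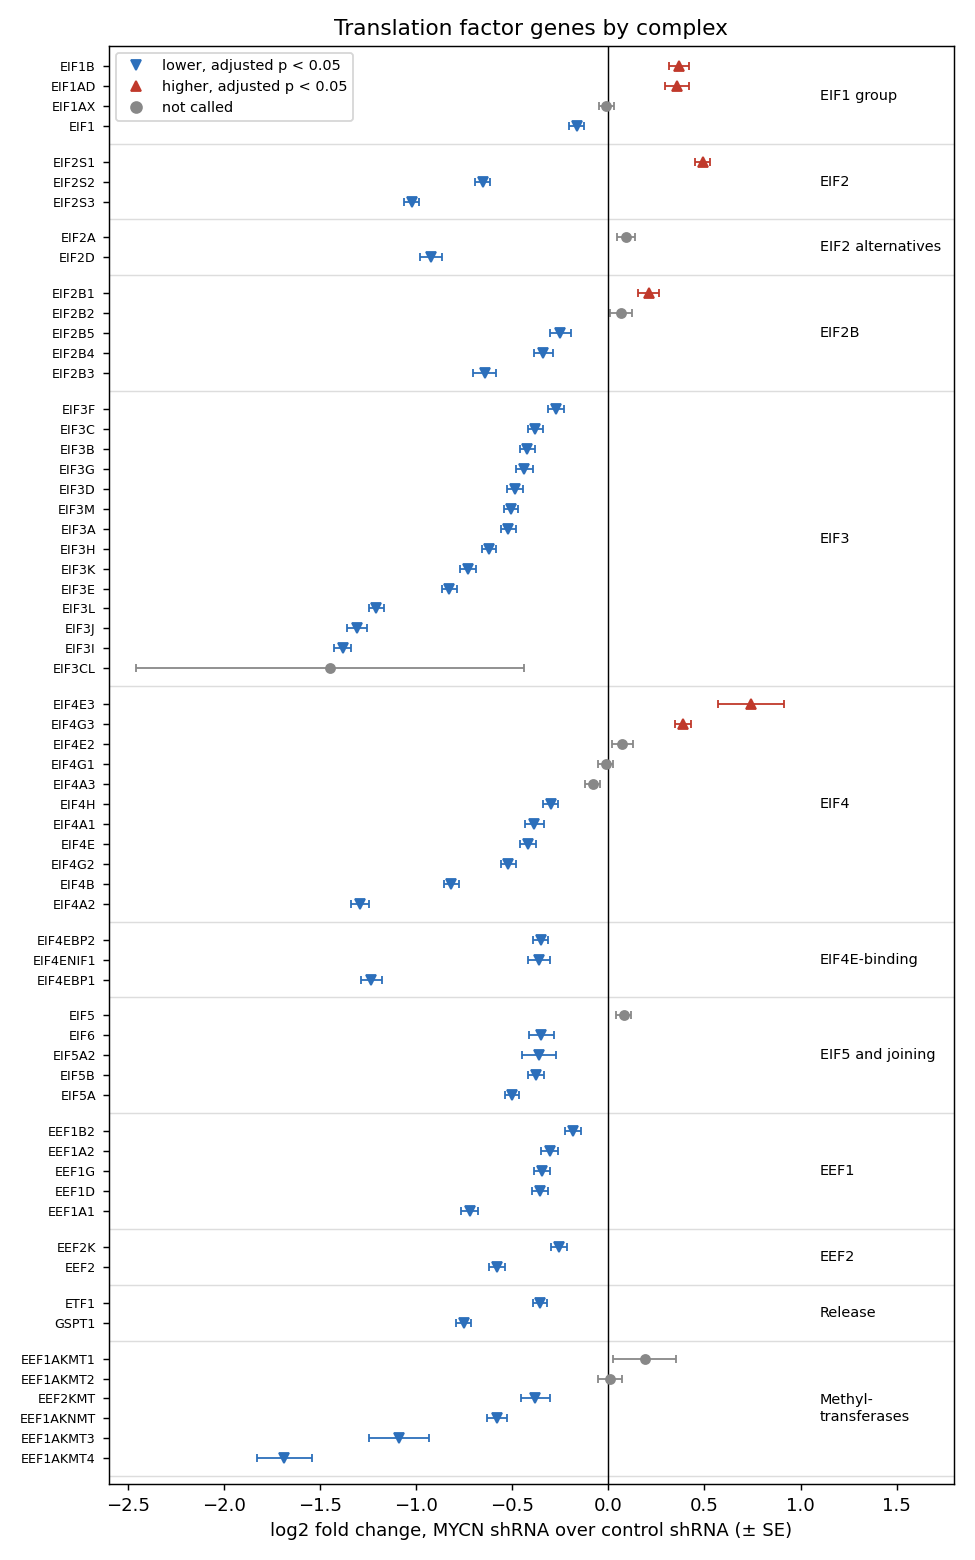
Log2 fold change (MYCN shRNA over control shRNA, horizontal axis, with its SE as bars) of the 62 tested translation factor genes, grouped by complex from top to bottom. EIF3 and EEF1 hold no gene called higher, while EIF2, EIF2B, EIF4 and the EIF1 group hold genes called in each direction.

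The subunits of EIF2, which delivers the initiator tRNA, changed in opposite directions, and their levels lay closer together with the MYCN shRNA. EIF2S1, the alpha subunit that stress kinases phosphorylate (chromosome 14, 67359997 to 67386516, GRCh38), measured 249, 248 and 253 CPM with the MYCN shRNA, against 176, 180.4 and 178 CPM with the control shRNA. It rose by 0.49 ± 0.038 on the log2 scale (SE, adjusted p = 3.42e-15), with every MYCN shRNA library above every control library. EIF2S2, the beta subunit (chromosome 20, 34088298 to 34112332), measured 233, 223 and 233 CPM with the MYCN shRNA, against 342, 369 and 373 CPM with the control shRNA, a fall of 0.65 ± 0.040 (adjusted p = 1.67e-18). EIF2S3, the gamma subunit that binds GTP and the tRNA (chromosome X, 24054716 to 24077971), measured 239.7, 237 and 240.3 CPM with the MYCN shRNA, against 468, 494 and 495 CPM with the control shRNA. Its fall of 1.02 ± 0.039 (adjusted p = 1.12e-25) was the largest of the trio. EIF2S3 has an intronless copy, EIF2S3B, so reads shared between them are uncertain.

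Ratios within a library need no scaling, and they show the same shift. Per kilobase of transcript, the ratio of EIF2S1 to EIF2S3 was 0.662, 0.666 and 0.671 in MYCN shRNA libraries, against 0.239, 0.233 and 0.229 in control libraries. The ratio of EIF2S1 to EIF2S2 was 0.632, 0.659 and 0.644 with the MYCN shRNA, against 0.304, 0.289 and 0.283 with the control shRNA. Both ratios were higher in each MYCN shRNA library than in any control library. They were chosen after the values were seen and carry no test.

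EIF2B, the 5-subunit exchange factor of EIF2, was also uneven, with 3 genes lower, 1 higher and 1 not called. The catalytic subunits are gamma and epsilon. EIF2B3 (gamma) measured 34.8, 33.6 and 36.1 CPM with the MYCN shRNA, against 51.9, 59.8 and 51.3 CPM with the control shRNA, and fell by 0.64 ± 0.060 (adjusted p = 9.75e-13). EIF2B5 (epsilon) averaged 51.6 ± 2.26 CPM with the MYCN shRNA and 61.3 ± 2.55 CPM with the control shRNA (SD, n = 3 each), a fall of 0.25 ± 0.053 that was lost with library sizes alone (adjusted p = 0.24). Of the regulatory subunits, EIF2B4 (delta) fell by 0.34 ± 0.050 without overlap, with 56.9 ± 1.79 CPM in MYCN shRNA libraries and 71.9 ± 1.03 CPM in controls. EIF2B1 (alpha) measured 66.8, 58.7 and 66.5 CPM with the MYCN shRNA, against 56.4, 57.4 and 52.0 CPM with the control shRNA, and rose by 0.21 ± 0.055 (adjusted p = 8.07e-04). EIF2B2 (beta) averaged 41.1 ± 0.973 CPM with the MYCN shRNA and 39.3 ± 1.05 CPM with the control shRNA and did not pass the test (adjusted p = 0.298). With library sizes alone it was called higher, at 0.25. Exons of EIF2B1 and EIF2B2 overlap genes on the other strand over 22.8% and 29.3% of their transcripts (GENCODE 29), and without a stated strand setting those reads cannot be told apart.

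**Figure D2:**
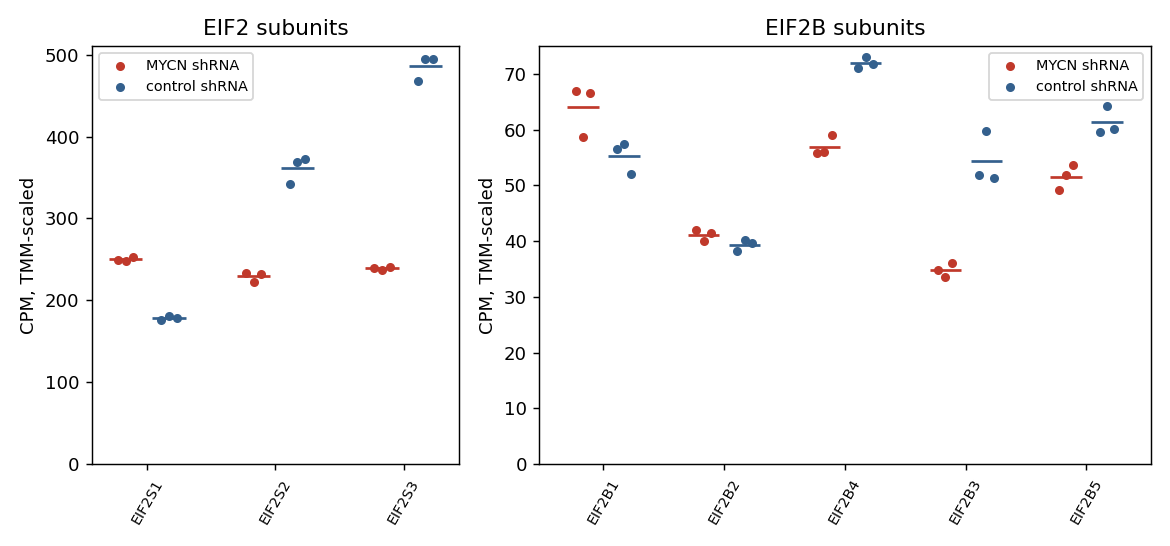
CPM of the EIF2 subunits (left panel) and EIF2B subunits (right panel) in each library, with bars at the group means. EIF2S1 is higher with the MYCN shRNA while EIF2S2 and EIF2S3 are lower, so that the 3 subunits lie between 223 and 253 CPM in MYCN shRNA libraries and between 176 and 495 CPM in controls.

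EIF2D and EIF2A, which can bring tRNA to the ribosome without EIF2, were set beside it. EIF2D measured 35.4, 35.6 and 34.9 CPM with the MYCN shRNA, against 69.1, 68.6 and 63.1 CPM with the control shRNA, a fall of 0.92 ± 0.055 (adjusted p = 6.76e-19) with no overlap. EIF2A measured 102, 97.9 and 97.0 CPM with the MYCN shRNA, against 90.3, 89.6 and 98.4 CPM with the control shRNA, and the groups overlapped (log2 fold change 0.09, adjusted p = 0.0636). It was called higher with library sizes alone (0.28, adjusted p = 1.54e-06), with upper quartile scaling (0.13, adjusted p = 0.00842), with the filter of 1 CPM in 3 libraries (0.1, adjusted p = 0.047) and without control shRNA replicate 3 (0.13, adjusted p = 0.00656). The list of EIF2 kinases, phosphatase subunits and their regulators held 6 lower and 5 higher genes of 12, with a median of 0.0, beside 37.9% lower and 38.0% higher over all genes tested, which is the background for each list that follows. EIF2AK2, the kinase activated by double-stranded RNA, rose by 0.56 to 125 ± 1.38 CPM with the MYCN shRNA, against 84.6 ± 3.55 CPM in controls (SD, n = 3 each). The other EIF2 kinases split: EIF2AK3 (0.29) rose, while EIF2AK1 (-0.09) and EIF2AK4 (-0.25) fell. PPP1R15B, which directs a phosphatase to EIF2S1, rose by 0.49, while PPP1R15A of the same list fell (-0.32). Of the phosphatase catalytic genes, PPP1CB (-0.23) and PPP1CC (-0.19) fell and PPP1CA (0.25) rose.

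EIF3, the largest initiation factor and the scaffold of the small subunit complex, was lower across its subunits. All 13 genes other than EIF3CL fell, with no overlap between groups, and the median over the 14 tested was -0.57. Together they held 0.344%, 0.341% and 0.346% of counts with the MYCN shRNA, against 0.48%, 0.492% and 0.469% with the control shRNA. EIF3CL, a near-identical copy of EIF3C, had 0 to 31.68 counts per MYCN shRNA library and 12.65 to 57.35 per control library. Its log2 fold change of -1.45 ± 1.008 (SE) did not pass the test (adjusted p = 0.258), and reads shared between the copies are uncertain.

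The fall was uneven within the complex, and 3 subunits stood below the other called EIF3 genes. EIF3I, a ring-shaped WD-repeat subunit (chromosome 1, 32221928 to 32231604), measured 95.8, 90.5 and 97.6 CPM with the MYCN shRNA, against 243, 259 and 238 CPM with the control shRNA. EIF3J, a loosely attached subunit near the decoding centre (chromosome 15, 44537057 to 44563029), measured 65.8, 69.4 and 70.6 CPM with the MYCN shRNA, against 159, 162 and 188 CPM with the control shRNA. EIF3L (chromosome 22, 37848868 to 37889407), of the octamer core, measured 288, 288 and 296 CPM with the MYCN shRNA, against 676, 691 and 648 CPM with the control shRNA. Their log2 fold changes were -1.38 ± 0.043, -1.31 ± 0.053 and -1.21 ± 0.039 (adjusted p = 9.26e-29, 4.25e-20 and 5.54e-28), and the groups did not overlap for any of them. Exons of EIF3L share 44.8% of their length with another gene on the same strand, so its reads are uncertain.

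The other 10 called EIF3 genes fell by between 0.27 and 0.83, with a median of -0.5. EIF3E, which marks the edge of the octamer, fell by 0.83 ± 0.038 to 439.8 ± 10.2 CPM with the MYCN shRNA, against 779.9 ± 8.29 CPM with the control shRNA (SD, n = 3 each). EIF3K fell by 0.73 and EIF3H by 0.62, and EIF3A, the largest subunit and the backbone of the complex, by 0.52. EIF3F showed the smallest change, with 298, 291 and 282 CPM in MYCN shRNA libraries and 358, 369.6 and 324 CPM in control libraries (-0.27 ± 0.042, adjusted p = 2.18e-07), and it was not called with library sizes alone (-0.09, adjusted p = 0.0535). All 8 octamer genes (A, C, E, F, H, K, L and M) were lower with a median of -0.57, as were the 4 genes of the B, D, G and I group with a median of -0.46. Within a library, EIF3I per kilobase stood at 0.783, 0.745 and 0.783 of EIF3A with the MYCN shRNA, against 1.43, 1.46 and 1.31 with the control shRNA. EIF3C, by contrast, stood at 1.57, 1.63 and 1.62 of EIF3A with the MYCN shRNA, against 1.47, 1.53 and 1.36 with the control shRNA.

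**Figure D3:**
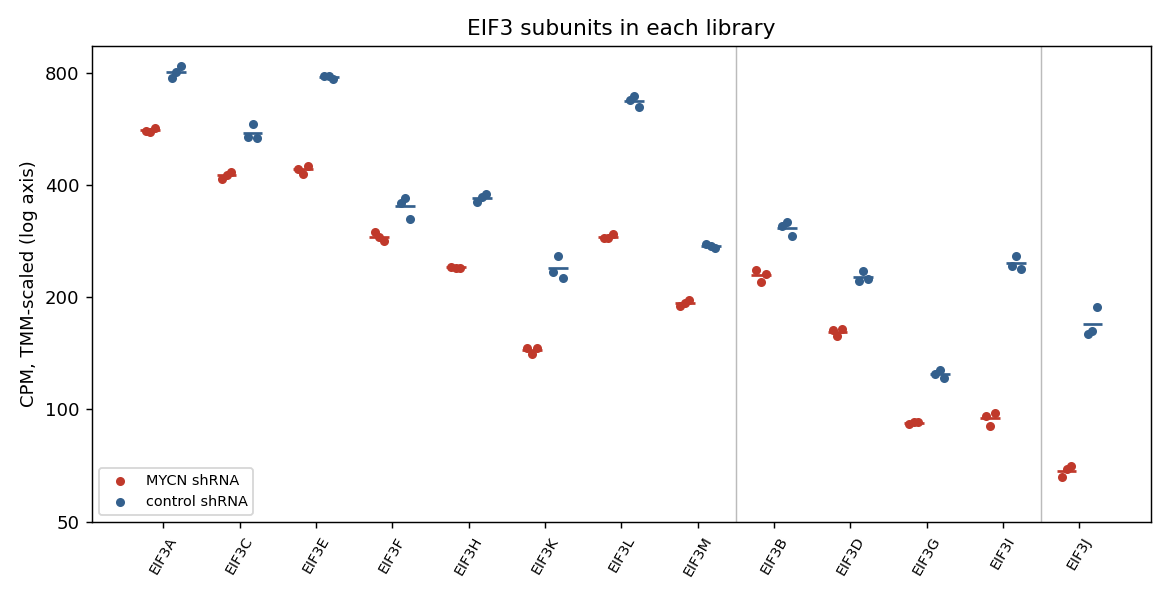
CPM (log axis) of 13 EIF3 subunit genes in each library, with the octamer core at the left, then the B, D, G and I group, then EIF3J, and bars at the group means. All MYCN shRNA points lie below the control points, with the widest gaps at EIF3L, EIF3I and EIF3J.

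The 3 called EIF3 subunits that fell most also carry a 7-base sequence in the 3′ untranslated region (UTR). It is GTGGATC or AGCACAA, which an earlier search of these same fold changes had picked out. The sites are shown for them and for EIF2D because these 4 are the genes of the set with a site and a fall beyond 0.9, with the 7 bases in capitals (GENCODE 29 transcripts, sense strand).
EIF3I: aaagaagaagGTGGATCtccaaccagg
EIF3L: agtgtttcaaGTGGATCtcagtaaagg
EIF3J: ttgaacatgtAGCACAActtcctttcc
EIF2D: gtctcacgtgGTGGATCcggtggaaat
None of the other 10 called EIF3 genes carries either sequence in the 3′ UTR of the transcript used. Their UTRs often leave less room for a site: EIF3C, D, E, F, G, H and K have 35 to 214 bases. EIF3B, EIF3A and EIF3M, however, have 554, 2369 and 3863 bases without a site, and fell by 0.42, 0.52 and 0.51. The UTRs of EIF3L, EIF3I and EIF3J have 318, 408 and 1654 bases. Outside EIF3, the transcripts used for GSPT1 and EIF2B4 have UTRs of 0 and 1 base and could not hold a site. Over the 62 tested translation factors, 8 carry at least 1 of them (12.9%), against 16.5% of all tested genes with a transcript model. The 8 had a median log2 fold change of -0.67 and the remaining 54 one of -0.37, while over all genes the medians were -0.08 with and 0.02 without a site. The other 4 carriers, EIF4E, EIF4H, EIF4EBP2 and EIF5A2, fell by 0.30 to 0.42. Among called genes, EIF4A2, EIF4EBP1, EIF2S3, EEF1AKMT3 and EEF1AKMT4 fell by more than 1 without a site. EEF1AKMT4 (-1.69) had the largest fall of all. Because the search that found them used these fold changes, the split carries no test, and their part in the result was not tested.

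Of the 11 tested genes of the EIF4 proteins, which bind the cap and open the mRNA leader, 6 were lower (54.5%) and 2 higher (18.2%). Over all genes tested the shares were 37.9% and 38.0%. Among genes with at least 100 CPM, a level that 9 of the 11 reached, they were 51.6% and 32.4%. The share of lower EIF4 genes was thus close to that of abundant genes of any kind. EIF4A2 fell most. This RNA helicase gene (chromosome 3, 186783205 to 186789900) measured 136, 141 and 151 CPM with the MYCN shRNA, against 325, 347 and 377 CPM with the control shRNA, a fall of 1.29 ± 0.047 (adjusted p = 2.03e-21). EIF4A1, its close paralogue, measured 699, 667 and 682 CPM with the MYCN shRNA, against 816, 984 and 875 CPM with the control shRNA, a smaller fall of 0.38 ± 0.049 (adjusted p = 1.16e-07). EIF4A1 lies within the readthrough gene SENP3-EIF4A1, which shares its exons. EIF4B, which stimulates the helicase, measured 868, 868 and 894 CPM with the MYCN shRNA, against 1482, 1534 and 1617 CPM with the control shRNA, a fall of 0.82 ± 0.041 (adjusted p = 1.32e-21). Exons of EIF4B overlap a gene on the other strand over 23.9% of its transcript. Another helicase helper, EIF4H, fell by 0.30.

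The cap-binding and scaffold genes went different ways. EIF4E, the cap-binding protein, measured 155, 149.8 and 161 CPM with the MYCN shRNA, against 206, 199.9 and 216 CPM with the control shRNA, a fall of 0.42 ± 0.041 (adjusted p = 3.16e-12) with no overlap. EIF4E2, a cap-binding protein that represses translation, averaged 55.3 ± 2.21 CPM with the MYCN shRNA and 52.5 ± 2.41 CPM with the control shRNA and was not called (0.07, adjusted p = 0.216), though it was called higher with library sizes alone (0.26, adjusted p = 6.62e-05). Exons of EIF4E2 overlap genes on the other strand over 33.7% of its transcript, so its reads are uncertain. EIF4E3 rose by 0.74 ± 0.170 (adjusted p = 1.54e-04) at a low level, with 4.82, 4.16 and 3.97 CPM in MYCN shRNA libraries and 2.23, 2.60 and 2.91 CPM in controls. EIF4G1, the main scaffold, measured 454, 441 and 429.8 CPM with the MYCN shRNA, against 432, 453 and 452 CPM with the control shRNA, and the groups overlapped (-0.01 ± 0.039, adjusted p = 0.747). It was called higher, at 0.17, with library sizes alone. Its paralogue EIF4G3 rose by 0.39 ± 0.041 (adjusted p = 3.80e-11), with 151, 157 and 162 CPM in MYCN shRNA libraries and 119, 121 and 119 CPM in controls. EIF4G2, a scaffold without the EIF4E-binding segment, fell by 0.52 to 874 ± 6.11 CPM with the MYCN shRNA, against 1254 ± 33.0 CPM with the control shRNA (SD, n = 3 each). EIF4A3, a helicase of the exon junction complex rather than of initiation, was not called (-0.08, adjusted p = 0.0606), but was called lower without a filter (-0.09, adjusted p = 0.0332) and without control shRNA replicate 3 (-0.12, adjusted p = 0.00382), and higher with library sizes alone (0.1).

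Inhibitors of EIF4E were lower too. EIF4EBP1, which blocks EIF4E until MTOR phosphorylates it, measured 41.8, 38.5 and 38.3 CPM with the MYCN shRNA, against 92.8, 99.0 and 86.5 CPM with the control shRNA, a fall of 1.23 ± 0.055 (adjusted p = 2.74e-23). EIF4EBP2 fell by 0.35 ± 0.038, with 256, 258 and 266 CPM in MYCN shRNA libraries and 328, 332 and 337 CPM in controls. EIF4ENIF1, which carries EIF4E into the nucleus, fell by 0.36 ± 0.057. Per kilobase, the ratio of EIF4EBP1 to EIF4E was 3.05, 2.9 and 2.68 with the MYCN shRNA, against 5.08, 5.6 and 4.52 with the control shRNA, lower in each MYCN shRNA library. The transcripts used are 1020 bases long for EIF4EBP1 and 11523 bases for EIF4E, so the level of this ratio depends on the models. In CPM, EIF4EBP1 averaged 39.5 against 155 for EIF4E with the MYCN shRNA, and 92.8 against 208 with the control shRNA.

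The MTOR and cap control list had 6 lower and 7 higher of 18, close to the shares over all genes, and a median of 0.12. LARP1, which binds mRNAs that begin with a pyrimidine tract, fell by 0.68 to 291 ± 3.59 CPM with the MYCN shRNA, against 465 ± 3.57 CPM in controls. DDIT4, an MTOR inhibitor, fell by 1.08. MKNK2, a kinase of EIF4E, rose by 0.50 and GIGYF1, a partner of EIF4E2, by 0.18. In the poly(A)-binding list 6 were lower and 3 higher of 10, with a median of -0.16. PABPC1, the poly(A)-binding protein that contacts EIF4G1, fell by 0.73. Its regulators went opposite ways: the repressor PAIP2 fell by 1.61, to 68.9 ± 4.05 CPM with the MYCN shRNA against 210 ± 6.36 CPM in controls, and the activator PAIP1 rose by 1.18, to 89.0 ± 0.681 CPM with the MYCN shRNA against 39.2 ± 2.84 CPM in controls (SD, n = 3 each). LARP4, which protects poly(A) tails, rose by 0.49.

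Paralogue balance was compared within each library for 7 pairs, as the share of the first gene per kilobase of transcript. EIF4A2 made up 15.3%, 16.4% and 17.1% of the EIF4A1 and EIF4A2 pair with the MYCN shRNA, against 27.0%, 24.7% and 28.6% with the control shRNA. EIF4EBP2 made up 46.3%, 48.5% and 49.5% of its pair with EIF4EBP1 with the MYCN shRNA, against 33.2%, 32% and 35.4% with the control shRNA. The EIF4EBP2 transcript used is 7257 bases long, and from counts without length its mean shares were 86.8% with the MYCN shRNA and 78.2% with the control shRNA, so which gene of the pair is the larger depends on the model. EIF4G3 averaged 24.5% ± 1.15 of its pair with EIF4G1 with the MYCN shRNA and 19.7% ± 0.377 with the control shRNA (SD, n = 3 each). EIF4A2 was the first-named gene whose share was lower with the MYCN shRNA, and the other 6 shares were higher.

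Among those 6, EIF4E2 averaged 71.9% ± 0.498 of its pair with EIF4E with the MYCN shRNA and 64.5% ± 1.46 with the control shRNA. The EIF4E transcript used is 11523 bases long, so this level depends on the model, and from counts without length the shares were 26.3% with the MYCN shRNA and 20.2% with the control shRNA. EIF1B, a paralogue of the start codon selection factor EIF1, averaged 30.2% ± 0.807 with the MYCN shRNA and 23.1% ± 0.385 with the control shRNA. EEF1A2, the EEF1A form of neurons and muscle, averaged 5.74% ± 0.22 with the MYCN shRNA and 4.37% ± 0.293 with the control shRNA. EIF5A2 averaged 1.17% ± 0.0315 with the MYCN shRNA and 1.06% ± 0.0281 with the control shRNA. Without length these 3 means were 15.8% with the MYCN shRNA and 11.5% with the control shRNA for EIF1B, 2.69% with the MYCN shRNA and 2.03% with the control shRNA for EEF1A2, and 4.19% with the MYCN shRNA and 3.82% with the control shRNA for EIF5A2. The direction of all 7 differences was the same without length, but their sizes depend on the transcript models. In each of the 7 pairs the groups did not overlap. Groups also did not overlap for 76.8% of all single genes tested, and the share over other gene pairs was not computed. The two-sided exact permutation p was 0.1 in each pair, which is the smallest that 3 against 3 libraries allow, and also 0.1 after adjustment over the 7 pairs.

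**Figure D4:**
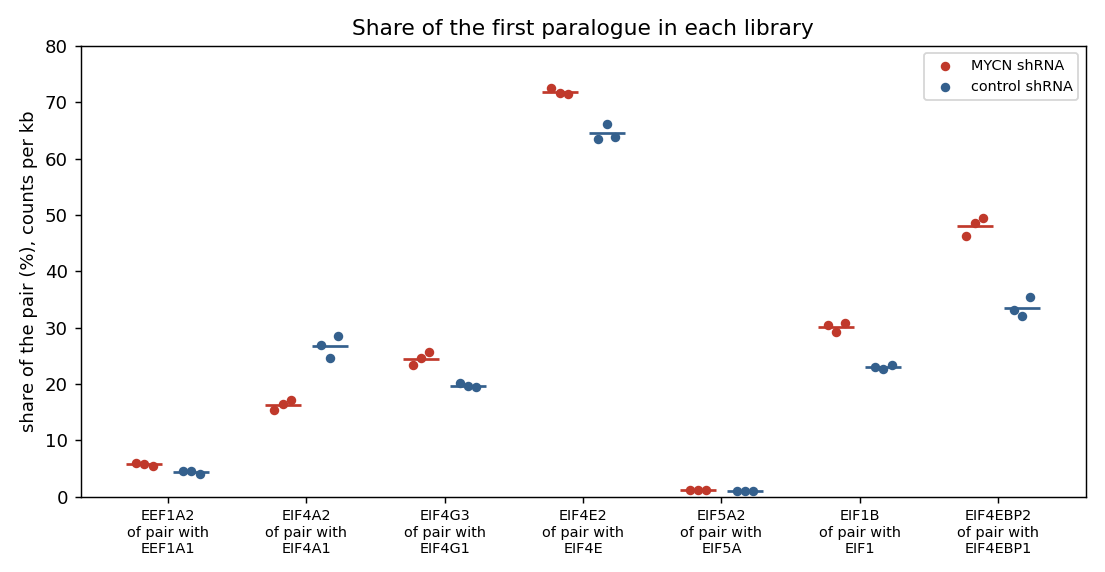
Share (%) of the first gene of each paralogue pair, in counts per kilobase, in each library, with bars at the group means. EIF4A2 is lower with the MYCN shRNA and the other 6 first-named genes are higher, with no overlap of the groups in any pair.

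Of the 4 tested genes grouped by an EIF1 symbol, 1 was lower and 2 higher. Of EIF5, EIF5A, EIF5A2, EIF5B and EIF6, 4 were lower, with a median of -0.36. EIF1 measured 355, 357 and 343 CPM with the MYCN shRNA, against 377, 408 and 397 CPM with the control shRNA, a fall of 0.16 ± 0.039 (adjusted p = 2.38e-04) that was not seen with library sizes alone (0.02, adjusted p = 0.673). EIF1B rose by 0.37 ± 0.052, with 67.3, 64.1 and 66.4 CPM in MYCN shRNA libraries and 49.0, 51.9 and 52.7 CPM in controls. EIF1AD, an EIF1A domain protein, rose by 0.36 ± 0.062. EIF1AX, the EIF1A gene of the X chromosome, averaged 239 ± 9.17 CPM with the MYCN shRNA and 241 ± 12.6 CPM with the control shRNA and was not called (-0.01, adjusted p = 0.839), though it was called higher with library sizes alone (0.17).

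EIF5, which triggers GTP hydrolysis by EIF2, measured 261, 275 and 279 CPM with the MYCN shRNA, against 251, 254 and 266 CPM with the control shRNA. The groups overlapped and the gene did not pass the test (0.08 ± 0.039, adjusted p = 0.0632), although it passed with library sizes alone (0.26, adjusted p = 8.92e-08), with upper quartile scaling (0.12, adjusted p = 0.00533), with the filter of 1 CPM in 3 libraries (0.09, adjusted p = 0.0432), without MYCN shRNA replicate 1 (0.11, adjusted p = 0.0318) and without control shRNA replicate 3 (0.1, adjusted p = 0.0114). EIF5B, the GTPase of subunit joining, fell by 0.38 ± 0.041 to 161 ± 9.45 CPM with the MYCN shRNA, against 209 ± 4.23 CPM with the control shRNA (SD, n = 3 each). EIF6, which keeps the ribosomal subunits apart, fell by 0.35 ± 0.064, and its exons share 22.0% of their length with another gene on the same strand. EIF5A, which carries the modified lysine hypusine and helps the ribosome through difficult peptides, measured 299, 286 and 293 CPM with the MYCN shRNA, against 416, 419 and 408 CPM with the control shRNA, a fall of 0.50 ± 0.038 (adjusted p = 1.53e-15). EIF5A2 fell by 0.36 ± 0.088 at 12.8 ± 0.609 CPM with the MYCN shRNA and 16.5 ± 0.649 CPM with the control shRNA, and its call was lost with library sizes alone (adjusted p = 0.0643).

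Genes that modify or assist these factors were taken from chosen lists. Of 9 enzymes that make hypusine on EIF5A or diphthamide on EEF2, 5 were lower and 2 higher, with a median of -0.54. DHPS, the first enzyme of hypusine synthesis, fell by 0.86 to 49.6 ± 1.79 CPM with the MYCN shRNA, against 90.1 ± 4.16 CPM in controls, and DPH2, of diphthamide synthesis, by 0.96. DPH3 (0.74) and DNAJC24 (0.49), of the same diphthamide pathway, rose. Of 11 initiation helpers and recycling factors 7 were lower and 3 higher, with a median of -0.21. BZW2, a regulator that resembles EIF5, fell by 1.45 and ABCE1, which splits ribosomes after termination, by 0.64, while GLE1 (0.38) and BZW1 (0.15) rose.

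All 5 EEF1 genes were lower. EEF1A1 was the most abundant of the translation factors, at 2675 ± 39.5 CPM per kilobase with the MYCN shRNA and 4408 ± 93.9 with the control shRNA. The next, EEF1G, stood at 1485 ± 16 with the MYCN shRNA and 1887 ± 84.8 with the control shRNA (SD, n = 3 each). The transcripts used are 4441 bases long for EEF1A1 and 1523 bases for EEF1G, so this margin depends on the models. EEF1A1 (chromosome 6, 73515750 to 73523797) measured 12080, 11757 and 11801 CPM with the MYCN shRNA, against 19419, 19264 and 20051 CPM with the control shRNA, a fall of 0.72 ± 0.044 (adjusted p = 1.87e-18). It has many processed pseudogenes, so its counts depend on how shared reads were placed. The genes of the exchange complex that reloads EEF1A changed less: EEF1G fell by 0.35 ± 0.042, EEF1D by 0.36 ± 0.042 and EEF1B2 by 0.18 ± 0.041. EEF1B2 measured 714, 709 and 736 CPM with the MYCN shRNA, against 768, 868 and 813 CPM with the control shRNA, and stood at 0.00 with library sizes alone (adjusted p = 0.996). EEF1A2 fell by 0.31 ± 0.042, with 347, 324 and 313 CPM in MYCN shRNA libraries and 414, 420.3 and 383 CPM in controls. Exons of EEF1D overlap genes of the other strand over 71.7% of its transcript, and nearly all of EEF1G (99.9%) lies within another gene of the same strand, so the reads of both are uncertain.

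EEF2, which moves the ribosome along the mRNA (chromosome 19, 3976056 to 3985469), measured 2269.8, 2243 and 2246 CPM with the MYCN shRNA, against 3499.8, 3449.8 and 3144 CPM with the control shRNA, a fall of 0.58 ± 0.043 (adjusted p = 7.52e-16). EEF2K, the kinase that inhibits it, fell by 0.26 ± 0.041, with 177 ± 9.55 CPM in MYCN shRNA libraries and 211 ± 6.4 CPM in controls, and was not called with library sizes alone (adjusted p = 0.0884). The 6 methyltransferase genes of EEF1A and EEF2 held 4 lower and 0 higher at adjusted p under 0.05, with EEF1AKMT4 the lowest log2 fold change of the 62 genes. EEF1AKMT4 measured 2.68, 2.53 and 3.05 CPM with the MYCN shRNA, against 8.01, 8.80 and 9.84 CPM with the control shRNA (-1.69 ± 0.143, adjusted p = 4.78e-14), and it shares exons with the readthrough gene EEF1AKMT4-ECE2. EEF1AKMT3 fell by 1.09 ± 0.156, EEF1AKNMT by 0.58 ± 0.052 and EEF2KMT by 0.38 ± 0.075. EEF1AKMT1 (0.19, adjusted p = 0.298) and EEF1AKMT2 (0.01, adjusted p = 0.905) were not called, though both were called higher with library sizes alone. Exons of EEF2KMT overlap a gene on the other strand over 40.3% of its transcript. Those of EEF1AKMT2 overlap a gene on the same strand over 43%, so the reads of both are uncertain.

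The release factors were lower by different amounts. GSPT1, the GTPase of termination, measured 219, 213 and 215 CPM with the MYCN shRNA, against 362, 344 and 386 CPM with the control shRNA, a fall of 0.75 ± 0.041 (adjusted p = 2.62e-20). ETF1, which reads the stop codon, measured 233, 235 and 235 CPM with the MYCN shRNA, against 294, 301 and 305 CPM with the control shRNA, a fall of 0.36 ± 0.038 (adjusted p = 2.94e-11). Per kilobase, the ratio of GSPT1 to ETF1 was 2.2, 2.12 and 2.13 with the MYCN shRNA, against 2.87, 2.66 and 2.96 with the control shRNA. The GSPT1 transcript used is 1603 bases long with no 3′ UTR, against 3742 bases for ETF1, so this level depends on the models. In CPM, GSPT1 averaged 216 against 234 for ETF1 with the MYCN shRNA, and 364 against 300 with the control shRNA. A list drawn up for release factor methylation and hydroxylation, which also holds methyltransferases of other proteins, had 3 lower and 0 higher of 7 at adjusted p under 0.05, with a median of -0.2. TRMT112, the partner of the ETF1 methyltransferase, fell by 0.54 and JMJD4, the hydroxylase of ETF1, by 0.76.

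Neighbouring systems were set beside them. Of 14 mitochondrial translation factors 11 were lower and 1 higher, with a median of -0.27. TUFM, the mitochondrial counterpart of EEF1A, fell by 0.73 to 176 ± 3.29 CPM with the MYCN shRNA, against 292 ± 3.21 CPM in controls, and GUF1 by 1.06, while the initiation factor MTIF3 rose by 0.35. The 7 selenocysteine genes held 2 lower and 2 higher, with a median of 0.03: SEPHS2 fell by 1.27 and SECISBP2 by 0.47, and SECISBP2L (0.28) and SEPSECS (0.23) rose.

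Several elongation and initiation factor mRNAs are known to begin with a C and a run of pyrimidines, the terminal oligopyrimidine motif through which MTOR and LARP1 control their translation. RefSeq starts (GRCh38.p14) were matched for 54 of the 67 genes, 49 of them tested. Among tested genes without a match, EIF2S2, EIF3A, EIF3E, EIF3G, EIF3H, EIF3L, EIF4EBP1, EEF1A2, EEF1D, EEF1AKMT3 and EEF2KMT were called lower. EIF3CL and EEF1AKMT1, also without a match, were not called. Their starts were not searched for this motif or the E-box below, and the medians with and without each feature leave them out. At the annotated start, 11 of the 49 (22.4%) had a C followed directly by at least 4 pyrimidines, against 5.5% of all tested genes and 4.04% of all promoters in the table. Of these 11 genes 10 were lower and 0 higher at adjusted p under 0.05, with a median of -0.72. The 38 without the run had 25 lower and 6 higher, with a median of -0.34. Over all tested genes the medians were -0.12 with and 0.01 without it. The starts below are shown for all 11 tested genes with the run, with the run in capitals and 5 bases on each side.
EEF1A1: acgttCTTTTTCgcaac
EEF2: gcgttCTCTTCCgccgt
EIF4B: cgggtCTTTTgcgtt
EIF4A2: gctgtCTTTTCagtcg
EIF2S3: ccttcCTCTTTTggcaa
EIF2D: cgggcCCTTTTCgcggc
EIF3D: gtttcCTCTTTTCCTggttt
EIF3F: gcctcCTTCTTTCTCgacaa
EIF3K: accacCTCTTCCTgttcc
EIF3M: gttccCTTTTCCggtcg
EIF2A: ggtttCTCTTTCCgggac
The EEF1A1 start lies at chr6:73521021-73521037 on the minus strand, that of EIF4A2 at chr3:186783572-186783587 on the plus strand and that of EIF2S3 at chrX:24054951-24054967 on the plus strand. EIF2A was the single gene of the 11 above 0 and was not called. The annotated start is 1 position per gene, and these cells may use others.

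MYC proteins are known to bind the E-box CACGTG with MAX. A search for CACGTG, which reads the same on both strands, from 250 bases before to 50 bases after the start found it in 12 of the 49 tested genes (24.5%), against 10.3% of all tested genes and 7.43% of all promoters in the table. Of these 12 genes 9 were lower and 1 higher, with a median of -0.33, and of the 37 without it 26 were lower and 5 higher, with a median of -0.36. Over all tested genes 499 of the 1079 with CACGTG were lower and 304 higher, and the medians were -0.11 with and 0.01 without it. EIF3F, EIF3K and EIF4B had both features. The windows are shown for the EIF4 genes with an E-box and a described role in cap-dependent initiation, and for EIF1B, the E-box gene that rose, with the motif in capitals and 10 bases on each side.
EIF4E at -225: acccatcggcCACGTGaccagtcctt
EIF4E at -72: acatatccgtCACGTGgccagaagct
EIF4G1 at -144: ctgtggctgtCACGTGacggggcggg
EIF4G1 at -67: ctgcgccggtCACGTGggggcgccgg
EIF4B at -22: ccgctataatCACGTGattgcctcat
EIF4H at -199: gccgccgcacCACGTGggctgcagag
EIF1B at -54: gcgggacggtCACGTGggaggggccg
Numbers give the first base of the motif relative to the start. The EIF4E windows lie at chr4:98929343-98929368 and chr4:98929190-98929215 on the minus strand, and those of EIF4G1 at chr3:184314452-184314477 and chr3:184314529-184314554 on the plus strand. EIF4E, EIF4G1, EIF5A2 and EEF1AKMT4 each hold a pair of E-boxes, and of these 4 genes EIF4G1 was not called while the other 3 fell, by 0.36 to 1.69. A match is a description of the letters and does not show binding.

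**Figure D5:**
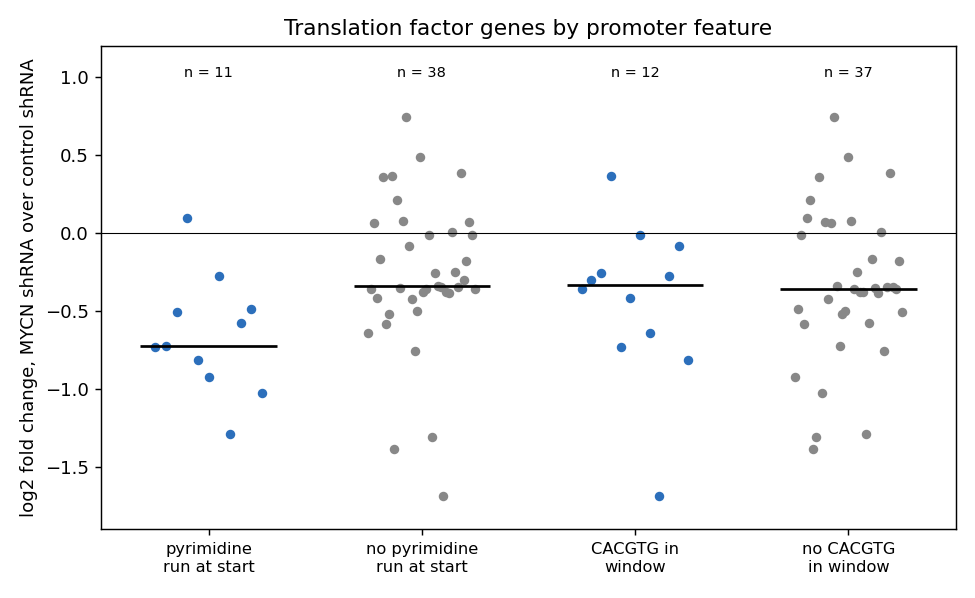
Log2 fold change (MYCN shRNA over control shRNA, vertical axis) of the 49 tested translation factor genes with a RefSeq start, by the presence of a pyrimidine run at the start (left pair) and of CACGTG in the promoter window (right pair), 1 point per gene with bars at the medians. Genes with the pyrimidine run have a median of -0.72 and those without it -0.34, whereas genes with and without CACGTG have medians of -0.33 and -0.36.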

How the data were processed

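TRIzol extraction and poly(A) selection preceded paired-end sequencing, per the labels' protocols and the series text. The authors deposited estimated counts per gene symbol, unscaled between libraries (12.7% not whole). Their processing notes name GRCh38. The sources used here name no aligner, counting program, annotation or strand setting.

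Of 17035 rows, 22 held no values. Counts were rounded, passed through filterByExpr (minimum count 10) and tested over 12819 genes by edgeR (version 4.0.16, R 4.3.3) with the quasi-likelihood test, TMM factors, robust dispersions and Benjamini-Hochberg adjustment at 0.05. The SE was derived from the F statistic. No replicates were identical (chi-square per degree of freedom 1.73 to 4.23), and the biological coefficient of variation was 3.34%. Depth was 15490263 to 16078416 counts per library. The fit was tested on simulated data.

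Members, complexes and lists were chosen with earlier results of these data known. Genes named were all tested members of complexes with up to 5, otherwise the 3 lowest and 2 highest called, both genes of each paralogue pair, and the 2 called genes of smallest p per direction in each list. EIF3A, EIF3CL, EIF3E, EIF3H, EIF3K, EIF4A3, EIF4H, EEF1AKMT1, EEF1AKMT2, PPP1CA and PPP1R15A were named after their values were seen, as were all ratios other than paralogue shares. The same holds for EIF2AK1, EIF2AK3, EIF2AK4, EIF3B, EIF3G and EIF3M. Gene positions and transcripts (1 per gene) came from GENCODE 29 (GRCh38), starts from RefSeq (GRCh38.p14). Alternatives were DESeq2 1.42.0, limma-voom (limma 3.58.1), scaling by RLE, by upper quartile or by library sizes alone, no filter, a filter of 1 CPM in 3 libraries, a replicate block, a 1.5-fold minimum, raw counts for paralogue shares, and each library left out. Python 3.11.15 ran scipy 1.17.1, pandas 2.3.3 and matplotlib 3.10.9.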

Additional observations from a re-analysis of the deposited data

How the results depend on the processing

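Among the 62 genes, 46 were lower, and this count was 40 with library sizes alone and 46 or 47 under the other tests, scalings, filters and left-out libraries. The count of higher genes, 6, was 15 with library sizes alone and 6 to 8 otherwise. With a minimum of 1.5-fold the counts were 17 lower and 1 higher. With library sizes alone, EIF2B had 2 genes called higher and EIF4 5. Leaving out each library gave 46 to 48 lower and 6 to 8 higher when genes outside the 62 were counted too: EIF2S3B was called lower without MYCN shRNA replicate 1, 2 or 3 and without control shRNA replicate 3. EIF2S3B, of the 5 genes left out by the filter, was therefore called or not according to the filter and libraries used, and EIF5AL1 was called without a filter. Of the 49 genes named by rule, 659 of 686 combinations of gene and alternative kept direction and call. With library sizes alone the sign turned for EEF1B2 (0.0), EIF1 (0.02), EIF1AX (0.17) and EIF4G1 (0.17). EIF1AX and EIF4G1, both at -0.01, also turned with upper quartile scaling (0.03 and 0.02) and ranged over left-out libraries from -0.04 to 0.03 and from -0.04 to 0.0, uncalled throughout. The 7 paralogue shares kept their direction without length and with each library left out. Same-numbered libraries correlated in their deviations at 0.12, 0.104 and 0.026, and libraries of different number at -0.142 to 0.0401. Each MYCN shRNA library correlated best with its own number, but control replicate 3 correlated better with MYCN shRNA replicate 2 (0.0401). These values do not settle whether the numbers pair the libraries, and the main fit left pairing out. With the replicate block 47 were lower and 8 higher, with EIF2A and EIF5 called higher and EIF4A3 lower.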
